A study of Homo sapiens with 5 samples.

Results

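Epidermal growth factor (EGF) signaling in SW480 tumors was followed through 9 genes, taken by name with no threshold on their values: the ligands AREG, EREG, HBEGF and TGFA, the receptors EGFR, ERBB2 and ERBB3, the receptor inhibitor ERRFI1 and the ligand-releasing protease ADAM17. All 9 were listed in each of the 5 libraries, among 15266 human genes listed in all of them, and all 9 were among the 12610 genes with enough counts to be tested between time points. Cells of SW480, a line from human colorectal cancer, carried GFP, which the study calls transfected, and were injected into zebrafish. They were sorted back by FACS from pools of dissected and dissociated tumors, with 1 cell in each well of a 384-well plate. Messenger RNA was counted by SORT-seq, in which each transcript is read near its 3′ end and counted once by its unique molecular identifier (UMI). There were 3 plates of tumors at 1 day post injection (1 dpi: libraries 6, 7 and 8) and 2 plates at 4 days post injection (4 dpi: libraries 10 and 11). Cells of both groups are thus the same GFP-labelled line in the same kind of host, and cells that were never injected were not analysed here.

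EGF family ligands are made as membrane proteins, and a protease, mostly ADAM17 for AREG, EREG, HBEGF and TGFA, cuts them free. The ligands bind receptor tyrosine kinases of the ERBB family. EGFR binds all ligands listed here, ERBB2 has no known ligand of its own and acts as a partner, and ERBB3 binds neuregulins and signals through its partners. ERRFI1 (also known as MIG6) binds the kinase domain of the active receptors, blocks it and is itself made in response to EGFR signaling. AREG and EREG are known in colorectal cancer as the ligands whose level goes with dependence on EGFR.

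The filter on cells (over 2000 genes, mitochondrial share of UMIs under 25%) left 228, 142 and 163 cells in libraries 6, 7 and 8 (533 cells at 1 dpi) and 132 and 161 cells in libraries 10 and 11 (293 cells at 4 dpi). The median depth per cell ranged from 18823 to 36197 UMIs and was lowest in library 11. Markers of colon epithelium (EPCAM, KRT8, KRT18 and others, 7 of 8 in the table) summed to between 4684 and 5746 CPM (UMIs per 1000000 UMIs of the library) in every library. Leukocyte markers (3 of 8 in the table) summed to between 2.64 and 6.27 and endothelial markers (2 of 5) to between 1.25 and 2 CPM. Fibroblast markers (2 of 6) summed to between 22.9 and 44.2 CPM. Of these, COL1A1 was at 1.47, 4.09 and 2.72 CPM at 1 dpi and at 16.7 and 7.12 at 4 dpi. LUM was at 21.5, 21.8 and 23.8 and then at 27.5 and 25.3. CD3E, MPO and CDH5 had no UMI in any well. The genes of the mitotic (G2/M) list took 724 to 907 CPM at 1 dpi and 1771 and 1914 at 4 dpi, and immediate early genes took 4603 to 6526 at 1 dpi and 3760 and 3906 at 4 dpi. All libraries used the same 384 well barcodes, and no well held the same counts in any 2 libraries. Each library was taken as 1 sample. The study describes a pool of tumors and names no separate pools for the plates of a time point. Where such plates were filled from the same pool, p-values measure only the spread between plates, not between pools of tumors.

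In GRCh38 (GENCODE annotation), AREG lies at chr4:74445136-74455005 and EREG at chr4:74365145-74388749, both on the plus strand and 56386 bases apart. HBEGF is at chr5:140332843-140346603 (minus strand), TGFA at chr2:70447284-70554193 (minus), EGFR at chr7:55019017-55211628 (plus), ERBB2 at chr17:39687914-39730426 (plus), ERBB3 at chr12:56076799-56103505 (plus), ERRFI1 at chr1:8004404-8026309 (minus) and ADAM17 at chr2:9488486-9556732 (minus). The last 1000 bases, where the UMIs of such a library come from, overlap another annotated gene in ERBB2 (MIEN1), ADAM17 (IAH1), ERBB3 and ERRFI1 (unnamed genes). The sources used here do not say whether counting used the strand, so UMIs of these neighbors cannot be told apart from those of the 4 genes.

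The promoters of TGFA and ERRFI1 are shown as genes called between time points, and those of AREG, EREG and HBEGF because of the main pattern below. In that pattern the ligands, ERRFI1 and ADAM17 were higher in cells with high immediate early genes. The motifs searched for are those bound by CREB, AP-1 (FOS and JUN) and SP1. The windows are those of RefSeq (GRCh38.p14), 5′ to 3′ up to the base before the annotated start, less any part inside an annotated exon. Capitals mark matches, on either strand, to the cyclic AMP response element TGACGTCA (CRE), the AP-1 element TGANTCA or the GC box GGGCGG. The 5 windows are chr4:74444886-74445135 (AREG, plus strand), chr4:74364895-74365144 (EREG, plus), chr5:140346604-140346853 (HBEGF, minus), chr1:8026310-8026559 (ERRFI1, minus) and chr2:70553974-70554076 (TGFA, minus, where 103 bases remained). EREG, AREG and HBEGF were added to this set after their values had been seen. ADAM17 was not added: 50 bases of its window remained, and the window matched the GC box 3 times and neither other motif.
AREG: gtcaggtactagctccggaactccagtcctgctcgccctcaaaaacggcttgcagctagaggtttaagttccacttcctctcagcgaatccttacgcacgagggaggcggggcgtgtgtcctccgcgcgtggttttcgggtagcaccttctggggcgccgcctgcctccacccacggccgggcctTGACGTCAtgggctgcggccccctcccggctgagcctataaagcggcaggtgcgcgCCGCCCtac
EREG: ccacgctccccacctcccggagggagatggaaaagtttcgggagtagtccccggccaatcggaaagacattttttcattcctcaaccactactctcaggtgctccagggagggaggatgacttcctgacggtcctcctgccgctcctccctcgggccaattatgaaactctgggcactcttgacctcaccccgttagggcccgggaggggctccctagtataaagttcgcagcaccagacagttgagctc
HBEGF: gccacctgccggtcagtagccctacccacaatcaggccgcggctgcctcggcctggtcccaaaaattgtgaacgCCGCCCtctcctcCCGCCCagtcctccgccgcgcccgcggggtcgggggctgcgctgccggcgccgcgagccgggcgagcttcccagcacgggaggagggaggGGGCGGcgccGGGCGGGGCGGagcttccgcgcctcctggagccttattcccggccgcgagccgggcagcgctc
ERRFI1: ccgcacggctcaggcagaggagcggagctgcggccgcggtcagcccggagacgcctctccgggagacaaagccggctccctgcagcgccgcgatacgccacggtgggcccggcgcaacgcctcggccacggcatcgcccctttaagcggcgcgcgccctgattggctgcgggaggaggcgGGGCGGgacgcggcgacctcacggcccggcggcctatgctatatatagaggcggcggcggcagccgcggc
TGFA: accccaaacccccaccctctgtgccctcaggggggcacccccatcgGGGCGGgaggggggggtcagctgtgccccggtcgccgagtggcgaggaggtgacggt

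AREG held a full CRE that began 65 bases before its start, a motif found in 1.65% of the 35116 RefSeq windows of 250 bases. It also held a GC box 9 bases before the start. HBEGF held 5 GC boxes, 3 of them between 73 and 58 bases before the start, ERRFI1 held 1 and the printed part of TGFA held 1. The GC box was found in 42.6% of all windows. No AP-1 element was found in these 5 windows (6.57% of all windows hold one), and EREG matched none of the 3 motifs, which says only that these letters are not in this window.

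Between 1 and 4 dpi, TGFA and the inhibitor ERRFI1 fell, and the receptors ERBB2 and ERBB3 rose. AREG, EREG, HBEGF, EGFR and ADAM17 did not pass the test. UMIs of all cells of a library were summed and tested across all genes with the two-sided quasi-likelihood test of edgeR (p adjusted by Benjamini-Hochberg for 12610 genes), and levels below are in CPM after TMM normalization. These levels must not be ranked between genes, because the share of transcripts that is counted differs from gene to gene. In this comparison 27.6% of all genes were called, 13.4% higher and 14.2% lower at 4 dpi, so 4 of 9 genes called (2 higher and 2 lower) is not far from the share among all genes. The median log2 change was -0.28 over the 9 genes and 0.00 over all genes tested. Fewer cells that express a gene and less RNA in each cell cannot be told apart in sums over cells, and shares of cells are given further on.

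TGFA, a ligand with high affinity for EGFR, was at 55, 69.9 and 50.4 CPM in libraries 6, 7 and 8 and at 26.7 and 24.2 in libraries 10 and 11. Both libraries of 4 dpi were below all libraries of 1 dpi. The log2 change was -1.20 ± 0.16 (standard error), with an edgeR adjusted p of 7.9e-05, and the log2 ratio was -1.23 on flow cell 1 (libraries 6, 7 and 10) and -1.06 on flow cell 2 (libraries 8 and 11). With every cell given equal weight, whatever its depth, the log2 ratio was -1.21. The change was smaller, but still called, with a mitochondrial maximum of 15% (-0.98, edgeR adjusted p = 3.5e-04). The same held in HES5-zero cells (cells without a UMI of HES5), an alternative added after the data had been seen (-0.77, edgeR adjusted p = 0.0149). In the fit on cells thinned to 5000 UMIs, which rests on 1 random draw and fewer UMIs, the change was -0.53 and was not called (edgeR adjusted p = 0.188).

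AREG, a ligand with lower affinity for EGFR, was at 132, 180 and 109 CPM at 1 dpi and at 147 and 121 at 4 dpi. The groups overlapped, with a log2 change of -0.06 ± 0.16 and an edgeR adjusted p of 0.797. EREG, its neighbor on chromosome 4, was at 21, 35.7 and 29.6 against 22.7 and 29.2 (log2 change -0.13 ± 0.21, edgeR adjusted p = 0.661). The levels of EREG rested on few cells: 1 cell held 35 of the 112 UMIs of library 11, and another 30 of the 141 UMIs of library 8.

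HBEGF, which binds both EGFR and ERBB4, was at 55.4, 94 and 66.4 CPM at 1 dpi and 46.6 and 67.4 at 4 dpi. Its groups overlapped and the change of -0.33 ± 0.19 was not called (edgeR adjusted p = 0.22). The ratio differed between flow cells, at -0.68 on flow cell 1 and 0.02 on flow cell 2. Without library 11 the change was -0.62 and passed the threshold (edgeR adjusted p = 0.0483).

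Of the receptors, ERBB2 and ERBB3 rose and EGFR did not pass the test. ERBB3 was at 45.1, 32.7 and 35.7 CPM at 1 dpi and at 60.4 and 59.6 at 4 dpi, so the groups did not overlap, as in 27% of all genes in this direction. Its log2 change was 0.65 ± 0.14 (edgeR adjusted p = 0.00319), with 0.64 on flow cell 1 and 0.74 on flow cell 2. When only cells with less than 15% mitochondrial UMIs were kept, the change was 0.33 and was not called (edgeR adjusted p = 0.14).

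ERBB2 was at 4.68, 4.75 and 5.25 CPM at 1 dpi and at 7.3 and 11.5 at 4 dpi. These levels stand on 35, 25 and 25 UMIs and on 29 and 44 UMIs in the whole library. The groups did not overlap and the log2 change was 0.94 ± 0.29 (edgeR adjusted p = 0.0247), but 7 alternatives ended the call. Leaving out library 6 gave 0.90 (p adjusted to 0.0632), leaving out library 7 gave 0.93 (0.0537) and leaving out library 11 gave 0.58 (0.335). A mitochondrial maximum of 15% gave 0.89 (0.0712) and DESeq2 gave 0.94 (0.0788). Of the alternatives added after the data had been seen, HES5-zero cells gave 0.90 (0.0804) and early-low cells, defined further on, gave 0.91 (0.25).

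EGFR, the receptor that all 4 ligands bind, was counted with only 21, 22 and 19 UMIs at 1 dpi and 8 and 15 UMIs at 4 dpi. Its levels were 2.81, 4.18 and 3.99 CPM against 2.01 and 3.9, and the groups overlapped. The log2 change was -0.28 ± 0.42 (edgeR adjusted p = 0.652), an error within which neither a rise nor a fall of moderate size would be seen.

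ERRFI1, the inhibitor, was at 64.2, 77.8 and 66.8 CPM at 1 dpi and at 48.1 and 36.2 at 4 dpi. All libraries of 4 dpi were below those of 1 dpi, with a log2 change of -0.72 ± 0.14 (edgeR adjusted p = 0.00171) and ratios of -0.56 and -0.88 on the flow cells. It was not called on thinned cells (-0.51, edgeR adjusted p = 0.153) or in HES5-zero cells alone (-0.50, 0.0703). ADAM17, the protease, was at 82.5, 90.7 and 103 against 78.8 and 67.4. Its groups did not overlap either, as in 27.7% of all genes in this direction, but its change of -0.33 ± 0.12 was not called (edgeR adjusted p = 0.0594). It was called without library 6 (-0.41) or library 10 (-0.45).

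Because deep cells show more genes, shares of cells with a UMI were computed for cells thinned to 5000 UMIs each, as the mean over all possible draws. Thinning left out 2 or 3 cells of each library and kept 815. AREG had a UMI in 33.7%, 39% and 28.6% of cells of libraries 6, 7 and 8 and in 25.9% and 28.4% of cells of libraries 10 and 11. The libraries of 4 dpi were thus both lower, by a small margin, in a gene whose summed level did not differ by the test. At 5000 UMIs, a cell with AREG held on average 2.15, 2.17 and 2.05 AREG UMIs at 1 dpi and 2.37 and 2.49 at 4 dpi. The lower share depended on the mitochondrial filter: with a maximum of 15% it was 35.5% ± 6.58 (SD, n = 3) at 1 dpi and 37.5% ± 1.14 (n = 2) at 4 dpi. With a minimum of 1000 genes per cell the difference was -6.55 percentage points, but the libraries overlapped. They did not overlap with a minimum of 3000 genes (-6.09 points), with no mitochondrial maximum (-8.87) or with cells thinned to 10000 UMIs (-9.92). With no thinning, AREG had a UMI in 65.4%, 72.5% and 54% of cells at 1 dpi (exact 95% intervals 58.8 to 71.5%, 64.4 to 79.7% and 46 to 61.8%) and in 47% and 47.2% at 4 dpi (38.2 to 55.8% and 39.3 to 55.2%). Such intervals cover counting error only.

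TGFA was seen in 21.5%, 26.6% and 18.9% of thinned cells at 1 dpi and in 11.5% and 10.3% at 4 dpi, and ERRFI1 in 22.2%, 26.6% and 26.8% and then in 16.8% and 15.6%. For TGFA and ERRFI1 the shares did not overlap, as for the summed levels. ADAM17 was seen in 30.9%, 32% and 37.9% of cells and then in 27.7% and 29.3%, and ERBB3 in 19.7%, 13.5% and 15.8% and then in 28.2% and 23.3%. The mean share of ERBB3 was 16.4% ± 3.16 (SD, n = 3) at 1 dpi and 25.8% ± 3.46 (n = 2) at 4 dpi, a difference of 9.41 percentage points. It was 4.34 points with a mitochondrial maximum of 15%, and with no thinning the libraries overlapped (55.1% ± 5.82 and 59.4% ± 10.2). Over all genes tested, shares that did not overlap were higher at 4 dpi in 27.5% and lower in 24.4%. Among the 9 genes they were higher in 2 (ERBB2 and ERBB3) and lower in 4 (AREG, TGFA, ERRFI1 and ADAM17). With 3 against 2 libraries an exact permutation test cannot give a p below 0.1, so no test was made on shares.

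EREG (8.6%, 13.2% and 10.2% of cells, then 8.75% and 7.61%) and HBEGF (20.2%, 25.4% and 22.9%, then 16.2% and 21.7%) overlapped between time points. In cells thinned to 10000 UMIs they were lower at 4 dpi without overlap, with means of 18.3% against 13.6% for EREG and 34.2% against 26.7% for HBEGF. With a mitochondrial maximum of 15%, at 5000 UMIs, HBEGF overlapped (means of 23.5% and 23.3%). EGFR was seen in 0.795% to 2.5% of thinned cells and ERBB2 in 2.05% to 3.21% at 1 dpi and in 3.79% and 5.78% at 4 dpi. For comparison, ALB (serum albumin) and HBA1 (hemoglobin), which colorectal cells should lack, had a UMI in 1.4% and 2.57% of the same cells, and HBA1 reached 5.1% in library 8. The share of EGFR is at the level of these 2 genes and is not read as expression here. That of ERBB2 at 1 dpi (2.05%, 2.05% and 3.21%) is close to or below that of HBA1 in the same libraries (1.8%, 2.92% and 5.1%). Other genes that such cells should lack were seen far less. Over all wells PTPRC had 19 UMIs, HBB 3 and INS 2, and GFAP, MYH7 and CD3E had 0. The background thus differs from gene to gene, and that of EGFR and ERBB2 is not known.

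Within a library, much of the level of AREG and EREG came from few cells. The 10% of cells with most AREG per UMI held 52.9%, 44.9% and 55.6% of the AREG level at 1 dpi and 61.5% and 60.8% at 4 dpi. EREG was more concentrated (61.2% to 84.5% over the libraries), and ADAM17 was spread more evenly (28.6% to 41%). This was not particular to ligands: TGFA (35.2% to 57.8%) lay near ERRFI1 (42.5% to 54%) and ERBB3 (37.8% to 44.4%). The value also rises where a gene has few UMIs, as in ERBB2 (67.7% to 89.5%). EREG had fewer UMIs than AREG and ADAM17 in every library, and the part of this was not tested. No ligand was seen in 41.7%, 34.3% and 44.7% of thinned cells at 1 dpi and in 56.3% and 54.7% at 4 dpi. A UMI of at least 1 of EGFR, ERBB2 and ERBB3 was seen in 22.6%, 16.3% and 20.2% of thinned cells and then in 31.3% and 29.2%. The share of cells with both a ligand and a receptor stayed between 10.4% and 13.1% in all 5 libraries. At this depth a gene with no UMI in a cell may still be expressed.

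EREG, HBEGF, TGFA, ERRFI1 and ADAM17 were seen more often in cells with AREG than in cells without it, and ERBB3 was not. Among thinned cells with AREG, EREG was seen in 12.8%, 22%, 20.1%, 17.2% and 16% (libraries 6, 7, 8, 10 and 11), and among cells without AREG in 6.47%, 7.56%, 6.29%, 5.81% and 4.26%. HBEGF was also more frequent in AREG cells in every library, by 1.46 to 1.67 times at 1 dpi and by 2.19 and 2.38 times at 4 dpi. ERBB3 was seen in AREG cells about as often as in others at 1 dpi (ratios of 0.901, 0.962 and 0.935) and less often at 4 dpi (0.523 and 0.4). ERRFI1 was seen 1.46 to 1.72 times as often in AREG cells at 1 dpi and 3.18 and 2.94 times as often at 4 dpi.

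Across the cells of a library, log2 levels of AREG and EREG had a mean Pearson r of 0.37 over the 5 libraries (0.29 to 0.42), AREG and ERRFI1 of 0.40 (0.24 to 0.51), HBEGF and ERRFI1 of 0.38 (0.34 to 0.46), and AREG and ERBB3 of -0.14 (-0.29 to -0.03). These are descriptions over 132 to 228 cells that share a plate and differ in depth. Depth itself had a mean r between -0.01 and 0.12 with each of the 9 genes (-0.15 to 0.25 in single libraries), and the mitochondrial share had a mean r of -0.28 with AREG and -0.24 with ERRFI1. With EGFR and ERBB2, which have few UMIs, mean values lay between -0.09 and 0.10 and those of single libraries between -0.22 and 0.32, and they are no finding.

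The genes most like each of the 6 well detected members were searched among 8252 genes with a UMI in at least 20% of the cells of every library. AREG was most like CEBPB (mean r of 0.47), PPP1R15A (0.44) and DDIT3 (0.43), and ERRFI1 ranked 9 and HBEGF 84. HBEGF was most like GADD45B (0.42), PHLDA2 (0.40) and MAFF (0.39), with ERRFI1 at rank 6 and AREG at rank 37. TGFA was most like KLF10 (0.37), AMOTL2 (0.34) and TIPARP (0.32), with ADAM17, at rank 538, as the nearest other member. ERRFI1 was most like SERTAD1 (0.49), RSRC2 (0.49) and GADD45B (0.47), and ADAM17 was most like RBM39 (0.36), MAP1LC3B (0.35) and CEBPG (0.34), with AREG at rank 13. ERBB3 stood apart: it was most like APCDD1 (0.28), NKD1 (0.27) and MFAP2 (0.27), and its ranks for the other members ran from 6274 to 8160. KLF10 is a gene of the immediate early list used next, CEBPB, DDIT3 and PPP1R15A are known as stress response genes, and APCDD1 and NKD1 as targets and inhibitors of Wnt signaling.

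Cells were then ranked within each library by an immediate early score, the UMIs of 20 genes such as FOS, JUN and EGR1, none of them a member, per 10000 UMIs of the cell. The library's cells were split into 3 groups of equal size, and the top group (early-high cells) was compared with the bottom group (early-low cells) with the library as a block. Of 8 members tested, AREG, EREG, HBEGF, TGFA, ERRFI1 and ADAM17 were higher in early-high cells, each in 5 of 5 libraries, ERBB3 was lower, and ERBB2 did not pass (log2 difference -0.17 ± 0.34). EGFR had too few UMIs to be tested. In this comparison 53.4% of 10128 genes were called, 26.7% higher and 26.7% lower, so a call by itself says little, and the sizes carry the information. The early-high cells also had a lower mitochondrial share in every library, with medians of 7.59% to 10% against 12.4% to 16.3%, and its part in these differences was not tested apart from the following: with a mitochondrial maximum of 15%, the 6 genes were again called higher and ERBB3 lower.

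ERRFI1 had the largest difference among the members. Its level in early-high and early-low cells was 100 and 12.2 CPM in library 6, 113 and 25.1 in library 7, 104 and 18.6 in library 8, 95 and 5.71 in library 10, and 80.3 and 7.53 in library 11. The log2 difference was 2.86 ± 0.22 (edgeR adjusted p = 2.4e-06). At 5000 UMIs it was seen in 26.6% to 38.2% of early-high cells and in 2.44% to 9.04% of early-low cells.

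HBEGF was 2.34 ± 0.25 higher on the log2 scale (edgeR adjusted p = 1.8e-05), EREG 1.49 ± 0.24 (adjusted p = 2.8e-04), TGFA 1.58 ± 0.19 (adjusted p = 3.7e-05) and ADAM17 1.14 ± 0.12 (adjusted p = 2.0e-05). For EREG, the early-low cells of library 11 reached 27.1 CPM against 5.71 to 15.9 in the other libraries, and 35 of their 36 EREG UMIs came from 1 cell. TGFA in early-high cells was at 79.9, 102 and 85.3 CPM at 1 dpi and at 35.7 and 35.6 at 4 dpi, and in early-low cells at 20.4, 44.9 and 21.9 and then at 18.7 and 9.79. On neither side did the libraries of the time points overlap, but library 10 was close to libraries 6 and 8 in early-low cells. In thinned cells TGFA was seen in 32.7%, 39.6% and 32.1% of early-high cells at 1 dpi and in 13.6% and 14% at 4 dpi, while the share of early-high cells with HBEGF lay between 29.9% and 36.9% in all libraries.

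AREG showed the widest gap between time points in this split. At 1 dpi it was at 149, 172 and 175 CPM in early-high cells and at 49.5, 55.1 and 46.4 in early-low cells, a ratio of 3.01, 3.12 and 3.77. At 4 dpi it was at 303 and 282 in early-high cells and at 15.5 and 13.6 in early-low cells, a ratio of 19.5 and 20.8. Early-high cells were thus higher and early-low cells lower at 4 dpi than in any library of 1 dpi, while the sum over all cells did not differ by the test. The groups were cut within each library, so their scores were not the same at both time points. Early-low cells scored at most 10.4, 13 and 10.2 at 1 dpi and 5.51 and 6.89 at 4 dpi. Early-high cells had median scores of 82, 130 and 83.2 at 1 dpi and 72.1 and 81 at 4 dpi. The part of these unlike scores in the result was not tested. The difference between the contrasts at 4 and 1 dpi was 2.61 ± 0.25 on the log2 scale (interaction term, edgeR adjusted p = 1.6e-06), and over its 8 alternatives and the one with a mitochondrial maximum of 15% it lay between 2.22 and 3.41 and was called in each. The share of thinned early-low cells with AREG was 15%, 18.5% and 16.6% at 1 dpi and 5.19% and 5.57% at 4 dpi, and that of early-high cells was 38.8%, 39.4% and 44.2% and then 48% and 48.5%.

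Of all genes tested for this interaction, 8.83% of 11189 were called, 5.05% with a higher and 3.78% with a lower ratio at 4 dpi, against 3 of 8 members. HBEGF had a larger ratio at 4 dpi (6.71 and 14.4, against 3.72, 4.66 and 2.94 at 1 dpi), with an interaction of 1.41 ± 0.34 (edgeR adjusted p = 0.0124), which was not called without library 11 (0.81, adjusted p = 0.313) or on thinned cells (0.58, 0.768). ERBB3 went the other way. It was at 42.7, 36.9 and 29.2 CPM in early-high and at 45.6, 38.9 and 43.1 in early-low cells of 1 dpi, and at 25.6 and 44.7 in early-high and at 87.2 and 79.8 in early-low cells of 4 dpi. Its interaction was -1.08 ± 0.30 (edgeR adjusted p = 0.0284) and was not called when library 6 (-1.03, p adjusted to 0.1), 7 (-1.05, 0.0673) or 10 (-0.63, 0.292) was left out, with DESeq2 (-1.09, 0.137), with 2 groups per library in place of 3 (-0.54, 0.129) or on thinned cells (-0.83, 0.535). The difference of ERBB3 over both time points, -0.64 ± 0.22 (adjusted p = 0.0288), likewise missed the threshold when library 8, 10 or 11 was left out. For ERRFI1 (1.14 ± 0.41, adjusted p = 0.0856), EREG, TGFA, ERBB2 and ADAM17 the interaction was not called.

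**Figure D1:**
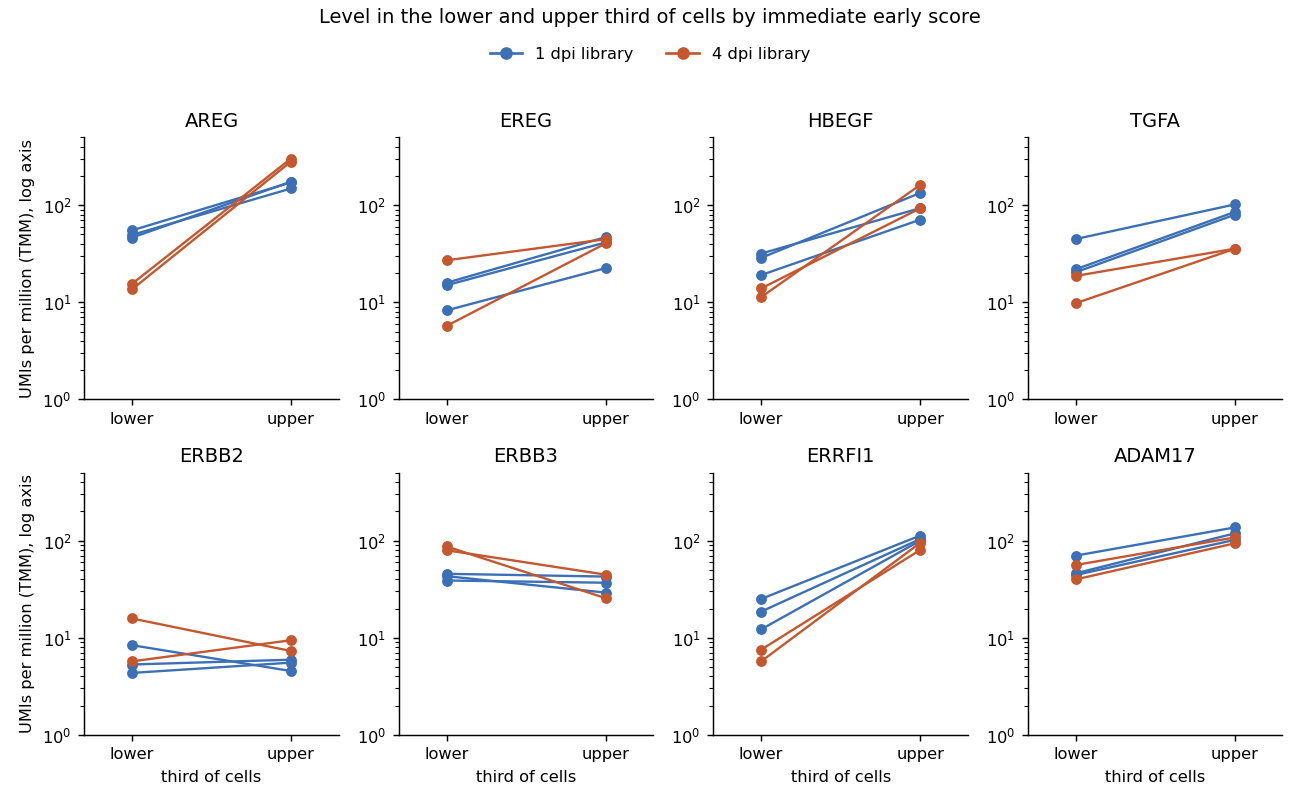
Each panel gives 1 gene in early-low (left) and early-high (right) cells, as CPM (TMM) on a log axis; a line joins both groups of cells of 1 library (1 dpi blue, 4 dpi orange). The lines of AREG are steeper at 4 dpi, with early-low cells at 15.5 and 13.6, and those of ERBB3 start higher at 4 dpi and fall.

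The time contrast was also run inside the early-low cells alone, an alternative added after the data had been seen. There AREG was lower at 4 dpi by a log2 change of -1.76 (edgeR adjusted p = 8.3e-05), HBEGF by -1.02 (adjusted p = 0.0388) and ERRFI1 by -1.42 (adjusted p = 0.0285), and ERBB3 was higher by 1.00 (adjusted p = 9.8e-04). TGFA kept its direction (-0.99) without passing (adjusted p = 0.0795). The median mitochondrial share of the early-low cells was 14.7%, 12.5% and 12.4% at 1 dpi and 15.9% and 16.3% at 4 dpi. Their immediate early scores reached 10.4, 13 and 10.2 at 1 dpi and 5.51 and 6.89 at 4 dpi. Cells with unlike scores were thus compared, and the part of this in the changes was not tested.

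A cycling score over 20 S and 20 G2/M genes, of which the table held 19 and 20, ranked the cells in the same way. AREG was lower in the most cycling cells in 5 of 5 libraries: 96.3 against 167 CPM in library 6, 127 against 353 in library 7, 70 against 153 in library 8, 133 against 228 in library 10, and 36.1 against 223 in library 11. The log2 difference was -1.29 ± 0.18 (edgeR adjusted p = 6.9e-05). ERRFI1 (-0.64 ± 0.17, adjusted p = 0.0126) and ADAM17 (-0.35 ± 0.12, adjusted p = 0.0408) were also lower in cycling cells, each in 5 of 5 libraries. Some of these differences were slight, with a ratio of 0.981 for ERRFI1 in library 8 and of 0.944 for ADAM17 in library 11. Without library 6 or library 7, only 1 member was called. ADAM17 also missed the threshold with DESeq2 (DESeq2 adjusted p = 0.166) and without library 8 (edgeR adjusted p = 0.077). ERRFI1 missed it with 2 groups per library in place of 3 (edgeR adjusted p = 0.0633). EREG, HBEGF, TGFA and ERBB3 had differences between -0.55 and -0.28 that did not pass, and EGFR and ERBB2 could not be tested. Of 9934 genes, 26.2% were called, 13.8% higher and 12.4% lower, against 3 of 7 members. The cycling cells were deeper (medians of 23772 to 39986.5 UMIs against 15754 to 24799), and at 4 dpi they had a higher mitochondrial share (15.7% and 15.6% against 9.05% and 9.17%); their part in the differences was not tested. In the least cycling cells alone, TGFA (-1.31), ERRFI1 (-0.81) and ERBB3 (0.70) again differed between time points (edgeR adjusted p = 0.00273, 0.04 and 0.04), and AREG was at -0.00.

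At 1 dpi, cells with a UMI of HES5, a target of Notch signaling, were compared with cells without one in the 3 libraries. TGFA was at 78.7, 86.2 and 72.4 CPM in HES5-detected cells and at 42.4, 60.4 and 35.7 in HES5-zero cells of libraries 6, 7 and 8. It was higher in 3 of 3 libraries, by 0.80 ± 0.13 on the log2 scale (edgeR adjusted p = 4.4e-05). ADAM17 was higher by 0.32 ± 0.10 in 3 of 3 libraries (adjusted p = 0.0194) and ERRFI1 by 0.42 ± 0.13 in 2 of 3 (adjusted p = 0.0156). AREG was lower by -0.34 ± 0.12 (adjusted p = 0.0325), at 99.3 against 153 and 82.2 against 128 in libraries 6 and 8 but 194 against 173 in library 7, and it missed the threshold when library 6 or library 8 was left out. ERRFI1 missed it without library 6 (0.21, adjusted p = 0.398), and ADAM17 without library 6 (0.36, 0.0731), without library 8 (0.24, 0.167) and with no library block (0.33, 0.0569). With DESeq2, AREG, ERRFI1 and ADAM17 were not called in this contrast (adjusted p of 0.167, 0.149 and 0.176). EREG, HBEGF, ERBB2 and ERBB3 did not pass and EGFR could not be tested. Over all 11196 genes, 34.8% were called (18% higher and 16.8% lower), against 3 higher and 1 lower of 8 members. HES5-detected cells were deeper, with medians of 40238 to 43405 UMIs against 20996.5 to 34770.5. After thinning to 5000 UMIs, which leaves fewer cells with HES5, no member was called higher and AREG was called lower, with ERRFI1 at -0.83 and HBEGF at -0.79.

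**Figure D2:**
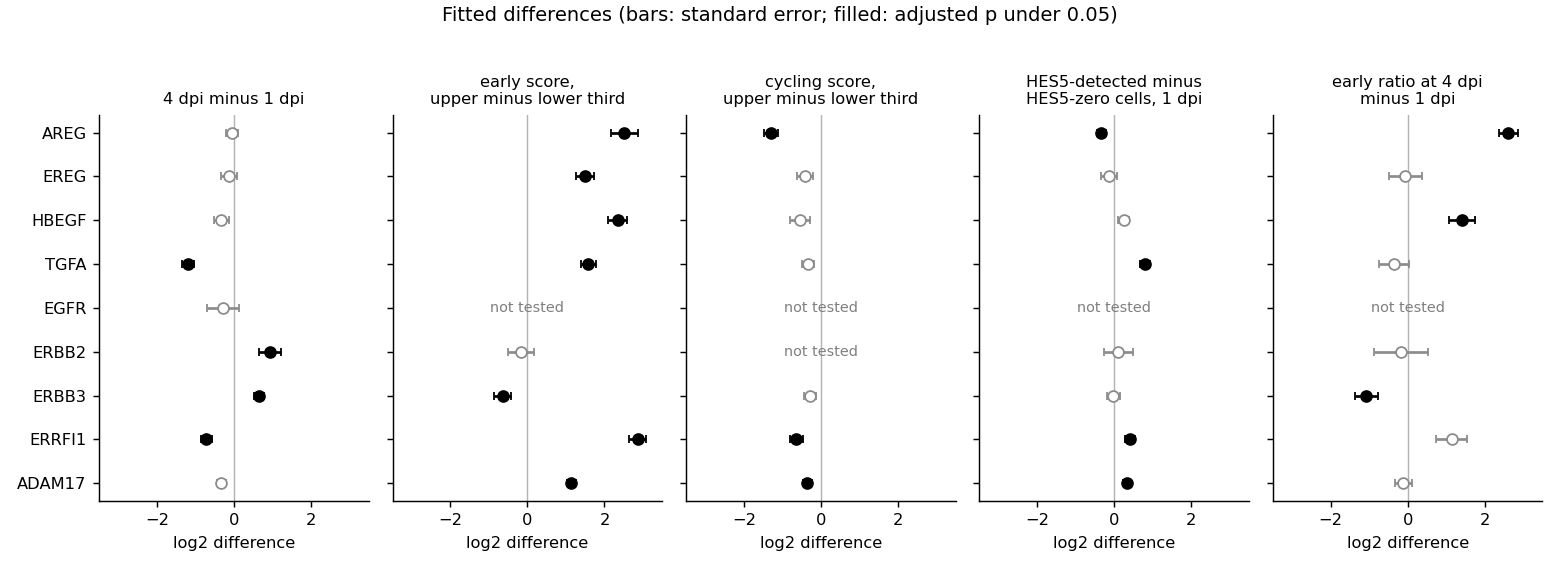
Points give the fitted log2 difference of each gene in 5 comparisons (columns), bars are standard errors, and filled points have an adjusted p under 0.05. TGFA is at -1.20 between time points, ERRFI1 at 2.86 between early-high and early-low cells, AREG at -1.29 between cycling and other cells, and AREG at 2.61 in the difference of the early contrast between time points.

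Other parts of the pathway were read from the same test between time points, in 5 lists written from general knowledge. The counts stand beside 13.4% of all genes called higher and 14.2% called lower in that test, and no list was tested against other genes. Of the other ligands and receptors (8 genes), 3 were tested and NRG2, a neuregulin, was higher (log2 change 2.00 ± 0.53, edgeR adjusted p = 0.0108), on 5, 4, 3, 9 and 13 UMIs in the 5 libraries. EGF itself had between 0 and 6 UMIs in all wells of a library, NRG1 at most 2 and NRG3 none, and ERBB4, the receptor that HBEGF and neuregulins bind, at most 7. Of the genes for release, trafficking and turnover of ligands and receptors, 21 of 24 were tested, 2 were higher and 4 lower (median change -0.14). The largest changes called were those of TIMP3, an inhibitor of ADAM17 (0.82 ± 0.25), the phosphatase PTPN2 (-0.62 ± 0.10) and SOCS5, which promotes degradation of EGFR (-0.51 ± 0.15).

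Of the adaptors and kinases downstream of the receptors, 29 of 30 were tested, 5 were higher and 3 lower (median 0.03), a share close to the 27.6% of all genes, with the adaptor GAB2 at 1.09 ± 0.37, the kinase MAPK3 (ERK1) at 0.92 ± 0.14 and AKT1 at 0.79 ± 0.12. Of the targets and feedback genes of ERK, 22 were tested, 10 were lower and 1 was higher, with a median change of -0.31 against 0.00 over all genes. ELK3 fell by 2.12 on the log2 scale (from 11.9, 10.1 and 11.6 to 1.76 and 3.38 CPM), DUSP5, a phosphatase of ERK, fell by 1.26 (from 45.7, 57.5 and 46.6 to 19.4 and 22.1), and IER3 fell by 0.96 (from 221, 296 and 246 to 134 and 126). Of the 20 immediate early genes, 8 were lower and 3 higher (median -0.22), with EGR2 at -2.32 ± 0.27, NR4A1 at -1.43 ± 0.24 and CYR61 at 1.20 ± 0.41. The libraries of CYR61 overlapped (4.55, 12.1 and 4.83 against 8.56 and 23.9 CPM).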

How the data were processed

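The deposited tables hold raw UMI counts per gene and well. Per the labels and the study's methods, the authors took well barcodes and UMIs from read 1 and mapped read 2 with BWA (version not given in the sources used here) to the human transcriptome (hg38 in the submitters' processing notes), with no normalization. The 9 genes were taken by name and not by a threshold on a measured value, but they, the lists and the tests were chosen with earlier results of these data known. Following the authors' filter, genes had to be listed in all libraries and detected in 10 wells or more, and wells needed over 2000 genes and a mitochondrial share under 25%; ERCC spike-ins (1.30% to 3.57% of UMIs) were counted in the filter and then removed. No doublet caller was run. Passing cells held 3789632 to 7503665 UMIs per library.

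UMIs were summed per library, or per library and group of cells, and tested in R 4.3.3 with edgeR 4.0.16 (TMM, filterByExpr, quasi-likelihood test, threshold 0.05), with DESeq2 1.42.0 as an alternative. Splits of cells had the library as a block, and genes of a score were left out of its test. Shares at 5000 UMIs are exact means over all draws (hypergeometric, scipy 1.17.1), in place of the single draw first planned, which moved with the draw. The fits on thinned counts use 1 seeded draw. All 9 genes are named in each comparison, with at most 3 called genes of each list and the 3 genes most like each member. Promoters were fixed for genes called between time points. Of these, ERBB3 had no window in the source used, and the window of ERBB2 lay inside annotated exons, so neither is shown. In simulated data, 100 genes were changed by 0.5 and 100 by 1 on the log2 scale. The time test called 35% and 67% of them, the immediate early test 19% and 73% and the cycling test 30% and 82%. The HES5 test called 30% and 68% and the interaction test 2% and 26%. Of the genes called, 4.85% to 12.5% were unchanged ones. In the data itself 988 to 5404 genes were called per comparison. The adjusted p depends on how many genes differ, so these rates may not hold there.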

Additional observations from a re-analysis of the deposited data

Results flagged for a closer look

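The contrast between early-high and early-low cells differed between time points in 3 genes, by a test of that difference. On the log2 scale it was larger at 4 dpi by 2.61 for AREG (edgeR adjusted p = 1.6e-06) and by 1.41 for HBEGF (adjusted p = 0.0124), and it changed by -1.08 for ERBB3 (adjusted p = 0.0284), over 3 libraries of 1 dpi and 2 of 4 dpi. The median depth of early-high and early-low cells was 14271 and 25209 UMIs in library 11, where they differed most. Both groups were cut within each library, and the highest score among early-low cells was lower at 4 dpi than at 1 dpi.

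Wells that failed the filter, which enter no comparison of the report except under a looser filter, held 463 UMIs of the 9 genes. By library (6, 7, 8, 10 and 11) that was 40, 63, 41, 150 and 169 UMIs, or 328, 363, 303, 211 and 245 CPM (UMIs per 1000000 UMIs of those wells), against 461, 577, 468, 441 and 426 in cells that passed. ERBB3 was at 84.4 and 78.1 CPM in the failed wells of 4 dpi and AREG at 28.1 and 42. At 1 dpi ERBB3 was at 8.19, 40.3 and 44.3 and AREG at 115, 155 and 66.5.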

How the results depend on the processing

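The counts of genes called rest on 3 against 2 libraries, and on as few as 8 EGFR UMIs in a library. The fits on thinned cells use 1 random draw. No paired analysis was possible because the groups share no replicate numbers. Between time points, 2 of the 9 genes were called higher and 2 lower. With a mitochondrial maximum of 15%, 0 were called higher, and AREG (0.27), HBEGF (0.03) and EGFR (0.13) changed sign without passing the test. DESeq2 called 1 higher. Thinned cells gave 1 higher and 0 lower of 7 members tested, with AREG at 0.05, and a flow cell term gave AREG 0.02. ERBB2 and EGFR were not tested on thinned cells. Of alternatives chosen after seeing the data, HES5-zero cells gave 1 higher and 1 lower. Least cycling cells gave 1 higher with EREG at 0.12, and ERBB2 and EGFR were not tested in them. Early-low cells gave 1 higher with EREG at 0.42. ADAM17 was called lower without library 6 or 10, with no filter on low counts, with the flow cell term and with no mitochondrial maximum. With every cell weighted equally, a value with no test, EREG was at -0.38 and ERBB3 at 0.83. Leaving out 1 library at a time gave 1 to 2 higher and 2 to 3 lower, with AREG from -0.21 to 0.16, EREG from -0.34 to 0.06 and EGFR from -0.83 to 0.12. For early-high against early-low cells (6 higher, 1 lower), thinned cells gave 5 higher of 5 members tested. ERBB3 and EREG had too few UMIs there to be tested, so the lower call of ERBB3 was not checked on thinned cells. Leaving out 1 library gave 0 to 1 lower, with ERBB2 from -0.36 to 0.10. For cycling (0 higher, 3 lower), thinned cells and a fit with no library block each gave 1 lower, and leaving out 1 library gave 1 to 3. For HES5 (3 higher, 1 lower), thinned cells gave 0 higher, with HBEGF at -0.79 and ERRFI1 at -0.83, no library block gave 0 lower, no filter on low counts gave 2 lower, and DESeq2 gave 1 higher and 0 lower. Leaving out 1 library gave 2 to 3 higher and 0 to 1 lower, with EREG from -0.50 to 0.12, ERBB2 from -0.03 to 0.23 and ERBB3 from -0.13 to 0.06. For the interaction (2 higher, 1 lower), a split of each library into 2 groups instead of 3 gave 0 lower, with EREG at 0.88 and ADAM17 at 0.01. Thinned cells gave 1 higher and 0 lower, with EREG at 0.68, TGFA at 0.56 and ADAM17 at 0.20, and DESeq2 gave 0 lower, with EREG at 0.06. A mitochondrial maximum of 15%, also chosen after seeing the data, gave EREG 3.14 (edgeR adjusted p = 0.0148) and ADAM17 0.04. Leaving out 1 library gave 1 to 2 higher and 0 to 1 lower, with EREG from -0.78 to 1.29, TGFA from -0.77 to 0.18, ERBB2 from -1.01 to 0.79 and ADAM17 from -0.26 to 0.05. For shares of cells (4 below, 2 above), cells as deposited gave 7 below and 1 above. The number of all genes called also moved by over 1.5 times. Between time points (1695 higher, 1789 lower) it was 548 and 504 in thinned cells, 956 and 907 in HES5-zero cells, 482 and 475 in the least cycling cells and 737 and 637 in early-low cells. For the early split (2703 and 2701) it was 1054 and 1015 in thinned cells. For cycling (1373 and 1231) it was 348 and 243 in thinned cells, 890 and 580 with DESeq2 and 866 and 549 with no library block. For HES5 (2019 and 1877) it was 431 and 389 in thinned cells, 936 and 762 with DESeq2 and 1222 and 976 without library 6. For the interaction (565 and 423) it was 861 higher with 2 groups per library, 92 and 58 in thinned cells, 194 and 150 with DESeq2, 365 and 263 with a mitochondrial maximum of 15%, and 206 to 407 and 165 to 314 when 1 library was left out. The shares of AREG (2.01 percentage points higher at 4 dpi instead of -6.58) and ERBB3 (4.34 instead of 9.41) moved with a mitochondrial maximum of 15%. The cause of these changes was not tested.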
